A study of Drosophila melanogaster with 62 samples.

Results

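The region described here is a stretch of 413 bins of 1 kb on chromosome arm 2L of Drosophila melanogaster, chr2L:15987001-16400000 on the dm6 build, out of 23514 bins on that arm and 137552 on all chromosomes. It begins beyond PRE1 and the gene CG5888 as seen from dac (dachshund) and reaches away from that gene, and its bins were chosen by position. The bins were counted in 4C-seq libraries, an assay that fixes one site as the viewpoint and counts the DNA fragments ligated to it, so that a count in a bin reports how often the bin was joined to the viewpoint. The 413 bins were read as 68 windows of 6 kb, which hold 408 bins and leave 5 at the edges, and as 7 blocks of 59 kb, which hold all of them. Each of 24 libraries was counted from a PRE2 viewpoint, whose bin of highest count was 16487001 to 16488000, and from a gypsy2 viewpoint at 16465001 to 16466000. The flank therefore lay 87.5 to 500.5 kb from the first viewpoint and 65.5 to 478.5 kb from the second.

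The libraries came from embryos, larval imaginal leg discs and pupal imaginal leg discs of flies kept at 20°C, and each group held 3. The study asks how a loop between PREs at dac and insertions of gypsy bear on contacts there. Wild type (WT) flies and gypsy2 flies, which carry a gypsy insertion, were assayed in all 3 stages, and gypsy1 flies, which carry a gypsy insertion under another name, in embryos. A second set of embryo libraries, replicates 4 to 6, is titled WT while its genotype field gives a gypsy insertion. It was kept apart as a second control set and is called titled WT here. The labels give neither the position nor the number of the insertions, no enzymes, and nothing on whether replicates came from separate cultures, so p-values measure the spread between these libraries. In the tables the gypsy2 columns are marked enh, a mark that no label explains.

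Polycomb response elements (PREs) are DNA elements that recruit Polycomb group proteins, and PREs of one domain can be held together in a loop. The gypsy insulator, a sequence from a retrotransposon bound by the protein Su(Hw), can restrict contacts between the sequences on its sides. Contacts in a 4C-seq profile fall with distance along the chromosome, and edges between chromatin domains show as places where they fall faster. The flank holds a gene-poor stretch next to CG5888 with jhamt, which encodes juvenile hormone acid methyltransferase, then a dense row of genes from chif (chiffon, a regulator of DNA replication) past cact (cactus, the inhibitor of Dorsal), fzy (fizzy, an activator of the anaphase-promoting complex) and crp (cropped, a transcription factor) to PRL-1, a phosphatase. Beyond it lie Ca-alpha1D, a subunit of a voltage-gated calcium channel, a stretch with few genes and many repeats, and the beaten path genes beat-Ia and beat-Ic, which act in axon guidance, with BicC (Bicaudal C) between them.

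The tables held 800269 to 25904672 counts per library and viewpoint, of which 42402 to 1326741 fell in the flank, so that counting alone gave the flank total an error of 0.0868 to 0.486%. Embryo WT and gypsy1 libraries were shallow and titled WT and gypsy2 embryo libraries deep, at 800269 to 1320945 counts for WT and 19952708 to 22267544 for gypsy2 from PRE2. Between 38 and 85 of the 413 bins were empty in a library. Replicates of a group correlated over windows with Pearson's r of 0.905 to 0.991, as a description across windows of libraries that share a decay with distance. Every value below is a share of the counts on 2L that lay over 5 kb from the viewpoint bin, so a share can fall because another part of the arm rose, and copies made by PCR are not known to be removed, so counting errors are lower limits.

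4 sequences are shown for the places on which the results turn. The first is from the bin with the highest mean share over the 9 WT libraries from each viewpoint, in a stretch without genes. It is chr2L:16388570-16388869 on the plus strand, with capitals on GATC, a site often cut in 4C-seq. The others are the 250 bases before the annotated starts of jhamt (chr2L:16365653-16365902, plus strand), in a window that gained in gypsy2 embryos, CaBP1 (chr2L:16356736-16356985, minus strand), in a window where the 2 embryo control sets differed, and Ca-alpha1D (chr2L:16165581-16165830, plus strand), beside the largest step. In these 3 capitals mark GAGAG or CTCTC, the pair of strands of the GAGA factor motif, with overlapping copies counted. All 4 are from the RefSeq dm6 assembly, overlap no annotated exon, and were chosen after the values were seen.
highest bin: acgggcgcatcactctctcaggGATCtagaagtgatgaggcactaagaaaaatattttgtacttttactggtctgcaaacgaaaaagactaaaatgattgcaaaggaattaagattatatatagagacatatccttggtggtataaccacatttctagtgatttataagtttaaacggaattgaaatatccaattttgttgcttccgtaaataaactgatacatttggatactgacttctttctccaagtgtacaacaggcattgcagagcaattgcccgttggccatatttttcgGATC
jhamt upstream: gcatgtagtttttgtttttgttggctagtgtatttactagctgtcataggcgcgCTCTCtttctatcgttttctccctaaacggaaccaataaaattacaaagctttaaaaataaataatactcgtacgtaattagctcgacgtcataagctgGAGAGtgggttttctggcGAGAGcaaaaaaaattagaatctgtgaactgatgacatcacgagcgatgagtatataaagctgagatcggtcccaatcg
CaBP1 upstream: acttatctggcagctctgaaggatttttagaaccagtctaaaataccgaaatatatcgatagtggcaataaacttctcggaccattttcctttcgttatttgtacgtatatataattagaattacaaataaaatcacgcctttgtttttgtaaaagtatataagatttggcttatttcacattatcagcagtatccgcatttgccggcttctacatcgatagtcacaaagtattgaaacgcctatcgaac
Ca-alpha1D upstream: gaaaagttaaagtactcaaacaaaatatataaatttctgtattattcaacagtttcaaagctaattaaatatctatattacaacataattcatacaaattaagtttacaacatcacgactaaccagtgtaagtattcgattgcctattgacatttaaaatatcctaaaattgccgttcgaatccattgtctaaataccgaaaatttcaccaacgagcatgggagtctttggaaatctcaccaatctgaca
The jhamt stretch held 3 copies of GAGAG or CTCTC and the other 2 gene starts none, where 24.5% of all 250-base pieces of the flank and 25.6% of those of 2L held at least 1. GATC occurred 2 times in the piece of the highest bin, which was picked as the 300 bases of that bin with most GATC. Its count therefore cannot be set against other pieces. Of all 300-base pieces, 41.8% in the flank and 48.7% on 2L held GATC.

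The flank took 11.3 ± 0.312% of the counts of 2L in WT embryos from PRE2 (SD, n = 3), 11.7 ± 0.663% in WT larval discs and 11.4 ± 0.306% in WT pupal discs, so the 3 stages overlapped. Seen from the other viewpoint it took 11.6 ± 0.273, 11.9 ± 0.505 and 11.2 ± 0.248%. Within the flank the counts were concentrated near dac. The nearest block, 16341001 to 16400000, with chif, CaBP1 (a calcium-binding protein) and jhamt, held 5.84 ± 0.467% of the 2L counts from PRE2 over the 9 WT libraries and 6.91 ± 0.583% from the gypsy2 viewpoint. The next block, 16282001 to 16341000, with 20 protein-coding genes that cover 92.6% of its bases, among them cact, fzy, cni (cornichon) and heix, held 3.04 ± 0.241 and 1.91 ± 0.283%. The block from 16223001, with PRL-1, twe (twine, a Cdc25 phosphatase) and most of crp, held 1.16 ± 0.12 and 0.874 ± 0.153%, and the Ca-alpha1D block 0.504 ± 0.0574 and 0.65 ± 0.0711%. The lowest block was 16105001 to 16164000, of which genes cover 2.48% and repeats 33.7%, at 0.235 ± 0.0363 and 0.338 ± 0.0588%. The 2 blocks beyond it, with beat-Ia, BicC and beat-Ic, were not lower than it in the mean, at 0.292 and 0.352% from PRE2, with 0.409 and 0.497% from the second viewpoint.

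A line of log2 mean count per bin on log2 distance over the 67 windows with counts had a slope of -2.36 ± 0.122 in WT embryos from PRE2 (SD, n = 3) and -1.74 ± 0.0398 from the gypsy2 viewpoint. Over all groups the mean slopes ran from -2.61 to -2.22 from PRE2 and from -2.12 to -1.57 from the gypsy2 viewpoint, so on this measure no group's mean from one viewpoint reached the range of the other. With the median bin plus 1 count in place of the mean count, the ranges overlapped, at -2.80 to -2.36 and -2.45 to -1.74. A peak was defined as a window at least 1 above its line, on the log2 scale, in all 9 WT libraries. From PRE2 1 window met this, 15988001 to 15994000, with a mean residual of 1.46. It is the farthest window, where the line undershot the level reached beyond 400 kb, and its share was 0.0503, 0.046 and 0.0461% in the 3 WT embryo libraries. With windows shifted by 3 kb the call moved to the window from 16003001, and from the gypsy2 viewpoint 0 windows met the definition. Apart from the end of the line, no window of the flank was therefore joined to either viewpoint above the fitted decay by that margin in every WT library.

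**Figure D1:**
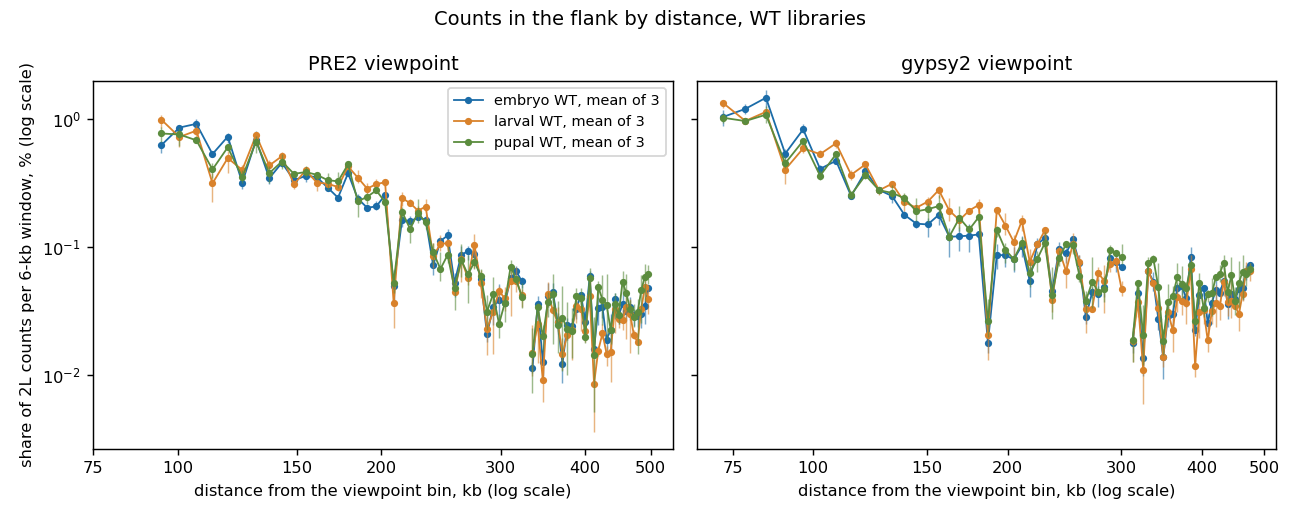
Share of 2L counts per 6-kb window (log scale, %) against distance from the viewpoint bin (log scale, kb) in WT embryos, larval and pupal leg discs; points are means of 3 libraries and vertical lines span them. Within the nearest block the windows at CaBP1 and jhamt held 0.626 and 0.753% from PRE2 in WT embryo replicate 1 and the farthest window 0.0503%, with a gap at the window without WT counts and a low point in crp.

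The fall that most exceeded the fitted line lay at the edge between Ca-alpha1D and the repeat-rich stretch, next to a window without WT counts. A step was the log2 ratio of the 30 kb nearer to the viewpoint over the 30 kb farther from it, less the same ratio on the line. The largest mean step over the 9 WT libraries was at 16162001 from both viewpoints, 0.94 from PRE2 (0.55 to 1.17) and 0.93 from the gypsy2 viewpoint (0.74 to 1.25). Neither reached 1 in all 9 libraries, so 0 steps were called from either viewpoint. With 18 kb on each side the same place gave 1.67 ± 0.266 and 1.74 ± 0.207 (SD, n = 9) and was the only call from each. The next positive step outside that place was at 16210001, beside CG31819, at 0.67 and 0.56. The largest negative steps, where counts fell less than the line or rose with distance, exceeded the step at 16210001 in size. They were -0.81 at 16048001 and -0.77 at 16138001 from PRE2, with -0.73 and -0.81 from the gypsy2 viewpoint. The far side of the step at 16162001 holds, at both widths, the window 16156001 to 16162000, which had no count in any WT library from either viewpoint. The near side of the step at 16138001 holds that window too, at 30 kb. An empty window raises the ratio at 16162001 and lowers it at 16138001, and its part in either step was not tested. Of the bases of this window 82.7% are masked repeats, and the annotated transposable element 297 spans 16153791 to 16160787. With the gypsy2 viewpoint it held 107, 0 and 13 counts in gypsy2 embryos, 0, 21 and 41 in titled WT and 65, 0 and 0 in pupal gypsy2 discs. Counts thus appeared in some libraries of a group and not in others, and its fitted changes are not given.

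Another low place was inside crp. The window 16276001 to 16282000 lay 1.68 below the line from PRE2 and 2.73 below it from the gypsy2 viewpoint, on the log2 scale, in the mean of the WT libraries. Its share from PRE2 was 0.0658, 0.044 and 0.038% in WT embryos, and 0.021, 0.0178 and 0.0147% from the gypsy2 viewpoint. The annotated transposable element 1360 lies in it at 16280313 to 16281417, 31.9% of its bases are masked, and GATC occurs 5 times. Of the 413 bins, 75 held no GATC, and these had a median share of 0.000233% from PRE2 against 0.0103% in the 338 that held one. Of the 10 bins over 90% masked, 9 had no count in any of the 24 libraries. The part of sequence content in these levels was not tested.

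Shares of windows differed between the 2 viewpoints, in a direction that changed along the flank. In a run of 18 neighbouring windows, 16252001 to 16360000, the share was higher from PRE2 than from the gypsy2 viewpoint in 9 of 9 WT libraries, although PRE2 lies farther away. The run is 108 kb long and overlaps 28 protein-coding genes, from PRL-1 through twe, crp, heix, cni, fzy and cact to chif and CaBP1. Mean log2 ratios in it were 0.26 to 1.11. At the edge nearest to dac, the window with jhamt and its upstream sequence, 16360001 to 16366000, was higher from PRE2 in 1 of 9 WT libraries. The next, 16366001 to 16372000, was higher in 0 of 9.

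**Figure D2:**
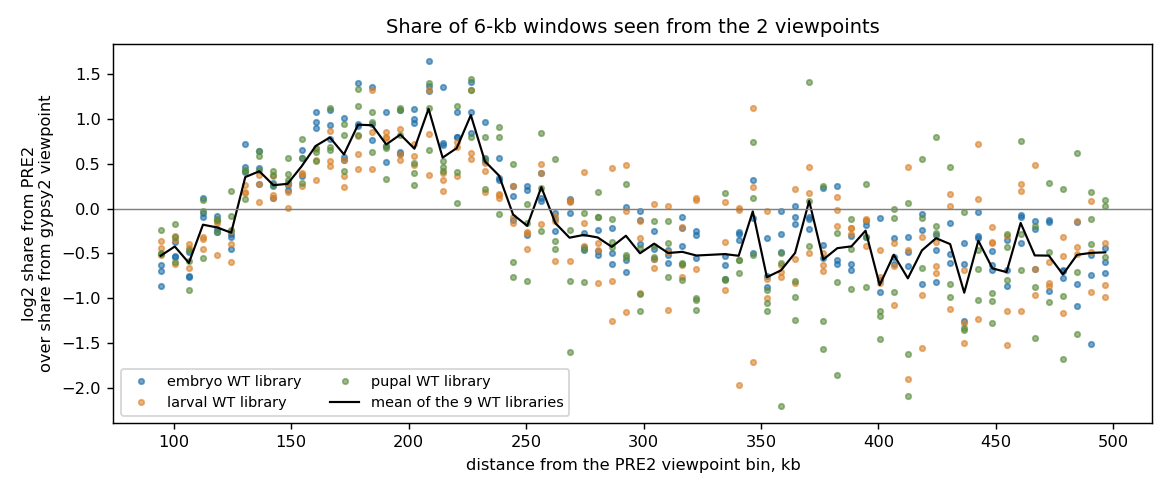
Log2 ratio of the share of a 6-kb window from PRE2 over its share from the gypsy2 viewpoint, against distance from the PRE2 viewpoint bin (kb), with a point for each of the 9 WT libraries and a line for their mean. The ratio is above 0 in all 9 libraries over 18 neighbouring windows, and its mean is below 0 in the 6 windows nearest to dac.

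No other window of the flank was higher from PRE2 in all 9 WT libraries, 14 were higher from the gypsy2 viewpoint in all 9, and 35 were mixed. In blocks, the log2 ratio was 0.68 ± 0.148 (SD, n = 9) for 16282001 to 16341000 and 0.42 ± 0.131 for 16223001 to 16282000, and both were higher from PRE2 in 24 of 24 libraries, insertion lines included. The nearest block was lower from PRE2, at -0.24 ± 0.077, as were the 4 far blocks, at -0.37 to -0.52. Both counts come from the same libraries, and the ratio has no test here.

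In gypsy2 flies the block nearest to dac lost counts from PRE2 in each stage. Its share was 5.71, 5.72 and 6.46% in WT embryos, 5.86, 5.95 and 5.86% in titled WT and 4.97, 5.12 and 5.08% in gypsy2 embryos. The gypsy2 embryos lay below both control sets without overlap. In larval discs it was 6.31, 5.02 and 6.34% in WT and 3.79, 3.68 and 3.68% in gypsy2, and in pupal discs 5.6, 5.96 and 5.49% against 4.55, 4.42 and 4.53%. WT larval replicate 2 was lower than the other 2 WT libraries and still above every gypsy2 library. With edgeR's quasi-likelihood test and Benjamini-Hochberg adjustment over all blocks of 2L, the log2 fold change was -0.24 ± 0.05 (SE, adjusted p = 0.00131) against WT embryos, -0.22 ± 0.03 (adjusted p = 3.01e-06) against titled WT, -0.66 ± 0.09 (adjusted p = 1.38e-10) in larval discs and -0.34 ± 0.04 (adjusted p = 7.03e-10) in pupal discs.

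**Figure D3:**
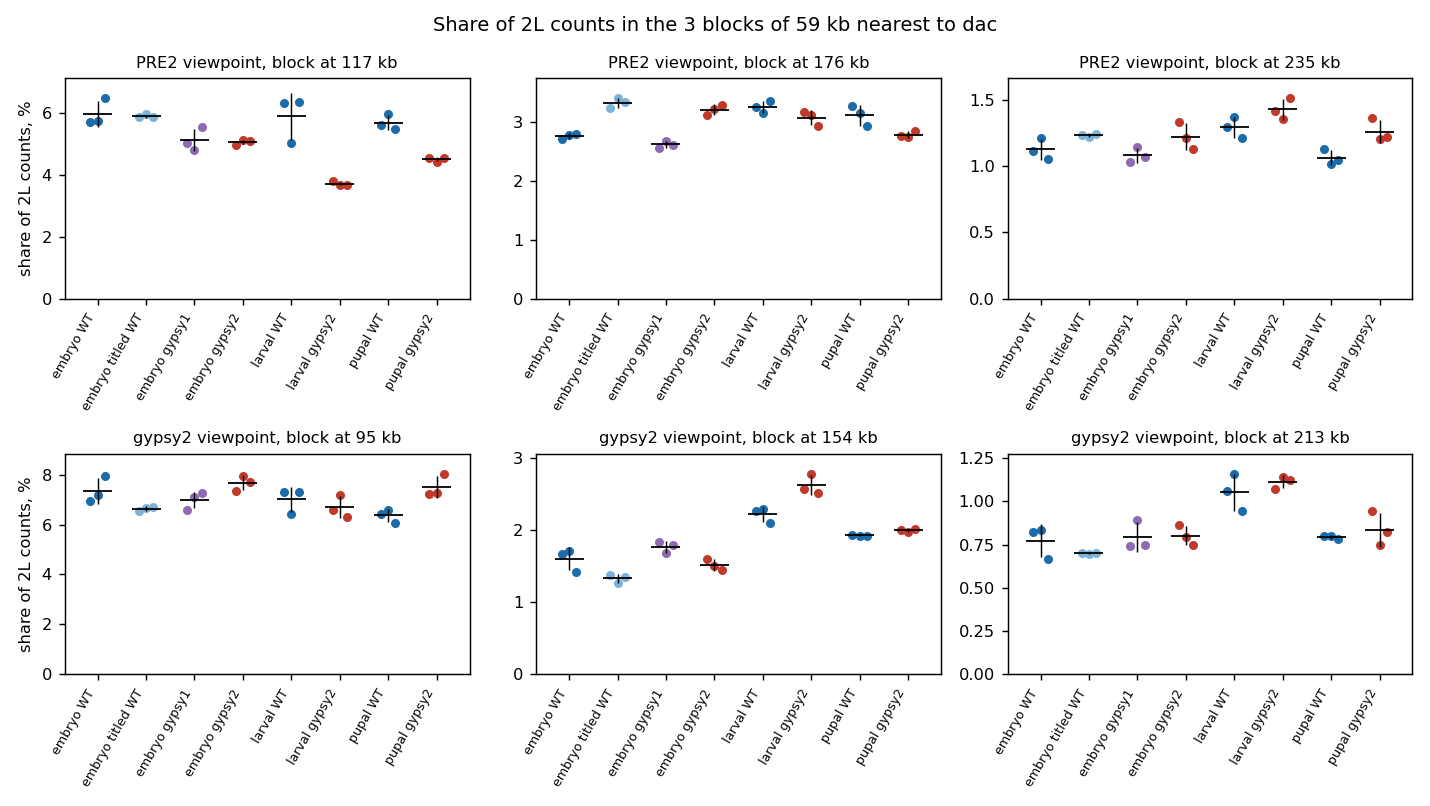
Share of 2L counts (%) in the 3 blocks of 59 kb nearest to dac, for each library (points), with the mean (horizontal line) and SD (vertical line) of the 3 libraries of a group, from PRE2 (top row) and the gypsy2 viewpoint (bottom row). In the nearest block from PRE2 the 3 gypsy2 libraries sit below the WT libraries of the same stage, at 3.68 to 5.12%.

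Few other blocks passed from PRE2. Of 7 blocks, 1 rose and 1 fell in gypsy2 embryos against WT, where 18% of all blocks of 2L passed, and 1 rose and 1 fell against titled WT (5.08% of all blocks). With TMM scaling 0 rose, 2 fell against WT and 1 against titled WT, and with DESeq2 0 rose and 3 fell against WT. In larval discs 0 rose and 1 fell (2.79% of all blocks), and in pupal discs 0 rose and 1 fell (2.03%; 1 and 4 by DESeq2). The block that rose in embryos against WT, 16282001 to 16341000 with cact and fzy, did so by 0.22 ± 0.06 (adjusted p = 0.00743), and titled WT also exceeded WT there by 0.27 ± 0.04 (adjusted p = 0.000188). That rise was no longer called without gypsy2 replicate 5 (adjusted p = 0.0548) or WT replicate 1 (adjusted p = 0.0739), nor with the scaling of TMM (0.227) or DESeq2 (0.276). The block called higher against titled WT, 16046001 to 16105000 with beat-Ia, was higher by 0.33 ± 0.09 (adjusted p = 0.0154); it was lower in titled WT than in WT by -0.49 ± 0.09 (adjusted p = 0.00231). Without gypsy2 replicate 4 or 6 or titled WT replicate 5 or 6 the former value had adjusted p of 0.119, 0.0526, 0.0591 and 0.0581. The share of the whole flank from PRE2 was 10.7 ± 0.0629% in gypsy2 embryos, 9.44 ± 0.0626% in larval discs and 9.84 ± 0.195% in pupal discs (SD, n = 3), below the WT values of the same stage given above; a total over the flank was not tested.

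Within that block the windows called lower from PRE2 in gypsy2 embryos against both control sets lay from the body of jhamt to the edge nearest to dac. Larval gypsy2 discs were also lower at the CaBP1 window and the window upstream of jhamt, without overlap and without a call. Their log2 ratios of mean shares were -0.44 and -0.319. The window 16390001 to 16396000, in the gene-free stretch between jhamt and CG5888, held 0.54, 0.649 and 0.673% in WT embryos, 0.555, 0.54 and 0.577% in titled WT and 0.386, 0.324 and 0.367% in gypsy2. In larval discs it held 1.04, 0.848 and 1.06% in WT against 0.483, 0.425 and 0.472%, and in pupal discs 0.657, 0.775 and 0.867% against 0.545, 0.5 and 0.478%. The gypsy2 libraries lay below all controls of their stage. The log2 fold change (edgeR, adjusted over all windows of 2L) was -0.79 ± 0.10 (adjusted p = 3.71e-05) against WT embryos, -0.64 ± 0.08 (5.01e-05) against titled WT, -1.10 ± 0.13 (0.00286) in larval and -0.59 ± 0.11 (0.0321) in pupal discs. The larval call was lost without gypsy2 replicate 3 (adjusted p = 0.0604), WT replicate 1 (0.0543) or WT replicate 3 (0.0578), and with TMM scaling (0.0524). The pupal call was lost without gypsy2 replicate 1 (0.0964), 2 (0.294) or 3 (0.307) or WT replicate 2 (0.0735) or 3 (0.143).

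The window 16372001 to 16378000, between jhamt and the previous one and also without a gene, fell from 0.527, 0.503 and 0.558% in WT and 0.433, 0.445 and 0.378% in titled WT to 0.267, 0.276 and 0.277% in gypsy2 embryos. The gypsy2 values did not overlap either control set. The fold change was -0.95 ± 0.09 (edgeR, adjusted p = 9.32e-07) against WT and -0.62 ± 0.09 (adjusted p = 0.000252) against titled WT, and both calls held without any 1 library. The window with the body of jhamt, 16366001 to 16372000, held 0.753, 0.647 and 0.772% in WT, 0.702, 0.737 and 0.686% in titled WT and 0.535, 0.575 and 0.565% in gypsy2 embryos. It was lower by -0.38 ± 0.08 (adjusted p = 0.0156) and -0.34 ± 0.07 (adjusted p = 0.0094). The first of these was lost without gypsy2 replicate 4 (0.0659) or 6 (0.0522) or WT replicate 1 (0.123) or 3 (0.0966), and the second without titled WT replicate 4 (0.0583) or 5 (0.2).

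From PRE2, 9 of 67 tested windows of the flank passed in gypsy2 embryos against WT, 4 higher and 5 lower (4 and 10 by DESeq2, 9 and 8 when only windows within 500 kb were fitted, with TMM). The same fit called 1.89% of all windows of 2L and 20.2% of those within 500 kb of the viewpoint. Against titled WT, 0 rose and 4 fell (3 and 7 by DESeq2, 3 and 8 in the fit within 500 kb), where 0.529% of all windows and 11.7% of those within 500 kb passed. Read against the windows within 500 kb, the flank held no excess of calls, and 3 windows, the ones described above, were lower against both control sets, while 0 were higher against both. In larval discs 0 rose and 2 fell (0.135% of all windows, 3.07% within 500 kb), and in pupal discs 0 rose and 2 fell (0.37 and 8.59%; 3 rose and 6 fell in the fit within 500 kb).

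**Figure D4:**
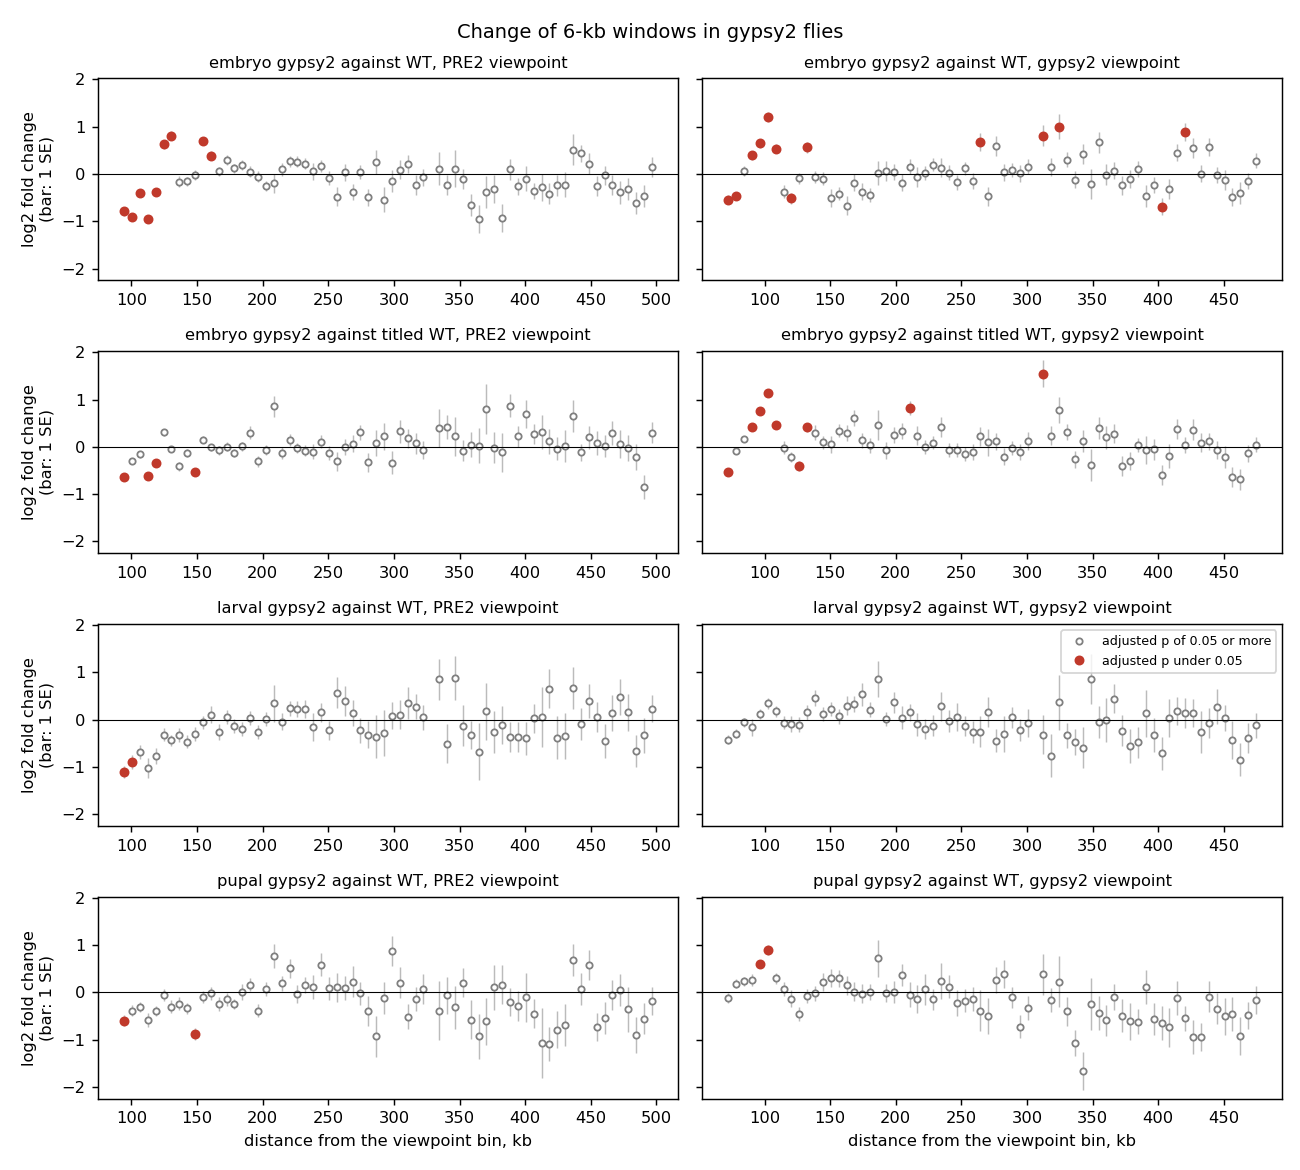
Log2 fold change of 6-kb windows in gypsy2 libraries against controls (points, with 1 SE), plotted against distance from the viewpoint bin (kb), from PRE2 (left) and the gypsy2 viewpoint (right); filled red points have an adjusted p under 0.05, and the window without WT counts is left out. From PRE2 the nearest window is a filled point below 0 in all 4 comparisons, and from the gypsy2 viewpoint both jhamt windows are filled points above 0 in embryos and pupal discs.

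The second larval call was the neighbouring window 16384001 to 16390000. It holds the bin of highest mean share over the 9 WT libraries, 16388001 to 16389000 (0.338 ± 0.0376% from PRE2, and 0.45 ± 0.0628% from the gypsy2 viewpoint). In larval WT from PRE2 the bin from 16394001 was higher in the mean, at 0.366% against 0.321%. From the gypsy2 viewpoint it was higher there too, at 0.504% against 0.413%. In pupal WT from PRE2 the bin from 16398001 was higher, at 0.372% against 0.32%. In titled WT and gypsy2 embryos from PRE2 the CaBP1 bin from 16355001 was higher, at 0.42 and 0.383% against 0.255 and 0.24%. The window 16384001 to 16390000 held 0.762, 0.598 and 0.799% in larval WT and 0.419, 0.339 and 0.397% in larval gypsy2, a log2 fold change of -0.90 ± 0.15 (edgeR, adjusted p = 0.0336). The call was lost without gypsy2 replicate 1 (0.131), 2 (0.0946) or 3 (0.233) or WT replicate 1 (0.384) or 3 (0.431), and with TMM scaling (0.221). In embryos it held 0.831, 0.827 and 0.899% in WT, 0.551, 0.567 and 0.557% in titled WT and 0.455, 0.472 and 0.436% in gypsy2. It was lower in gypsy2 by -0.91 ± 0.07 (adjusted p = 2.58e-07) against WT and by -0.30 ± 0.07 against titled WT (adjusted p = 0.0725), and lower in titled WT than in WT by -0.61 ± 0.07 (adjusted p = 4.78e-06). The second pupal call was 16336001 to 16342000, at CG31817, CG42266 and CG44405, with 0.384, 0.365 and 0.362% in WT and 0.215, 0.187 and 0.201% in gypsy2 (-0.88 ± 0.13, adjusted p = 0.00568), which was lost without gypsy2 replicate 2 (0.0796) or 3 (0.0943) or WT replicate 1 (0.0574). In embryos this window held 0.29, 0.343 and 0.345% in gypsy2, among the WT values of 0.324, 0.323 and 0.346% and below titled WT at 0.48, 0.48 and 0.448% (-0.52 ± 0.09, adjusted p = 0.00155).

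From the gypsy2 viewpoint the windows around jhamt rose in gypsy2 embryos. The window 16360001 to 16366000, most of it upstream of jhamt and including the printed sequence, held 0.343, 0.436 and 0.437% in WT, 0.413, 0.435 and 0.428% in titled WT, 0.322, 0.414 and 0.361% in gypsy1 and 0.923, 0.99 and 0.901% in gypsy2 embryos. The 3 gypsy2 libraries lay above the other 9 embryo libraries without overlap. The fold change was 1.21 ± 0.11 (edgeR, adjusted p = 2.92e-06) against WT and 1.14 ± 0.07 (adjusted p = 3.21e-10) against titled WT, and both calls held without any 1 library. In pupal discs the window held 0.4, 0.346 and 0.329% in WT and 0.643, 0.692 and 0.671% in gypsy2 (0.90 ± 0.11, adjusted p = 0.00465), a call lost without gypsy2 replicate 3 (adjusted p = 0.0562). In larval discs it held 0.499, 0.566 and 0.52% in WT and 0.606, 0.752 and 0.66% in gypsy2, which did not overlap and did not pass (0.35 ± 0.12, adjusted p = 1).

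The next window, with the body of jhamt, rose from 0.795, 0.776 and 0.905% in WT and 0.721, 0.819 and 0.75% in titled WT to 1.12, 1.4 and 1.36% in gypsy2 embryos. The fold change was 0.65 ± 0.10 (adjusted p = 0.000447) against WT and 0.76 ± 0.07 (adjusted p = 5.84e-07) against titled WT, and both held without any 1 library. From PRE2 the same window was lower, as given above. In pupal discs it rose from 0.637, 0.685 and 0.696% to 1.05, 0.941 and 1.06% (0.59 ± 0.09, adjusted p = 0.0146), and that call was lost without gypsy2 replicate 1 (0.099) or 3 (0.117) or WT replicate 1 (0.141) or 2 (0.0674). Larval values were 0.617, 0.536 and 0.606% in WT and 0.665, 0.623 and 0.62% in gypsy2, with an adjusted p of 1. The difference between stages was not tested.

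**Figure D5:**
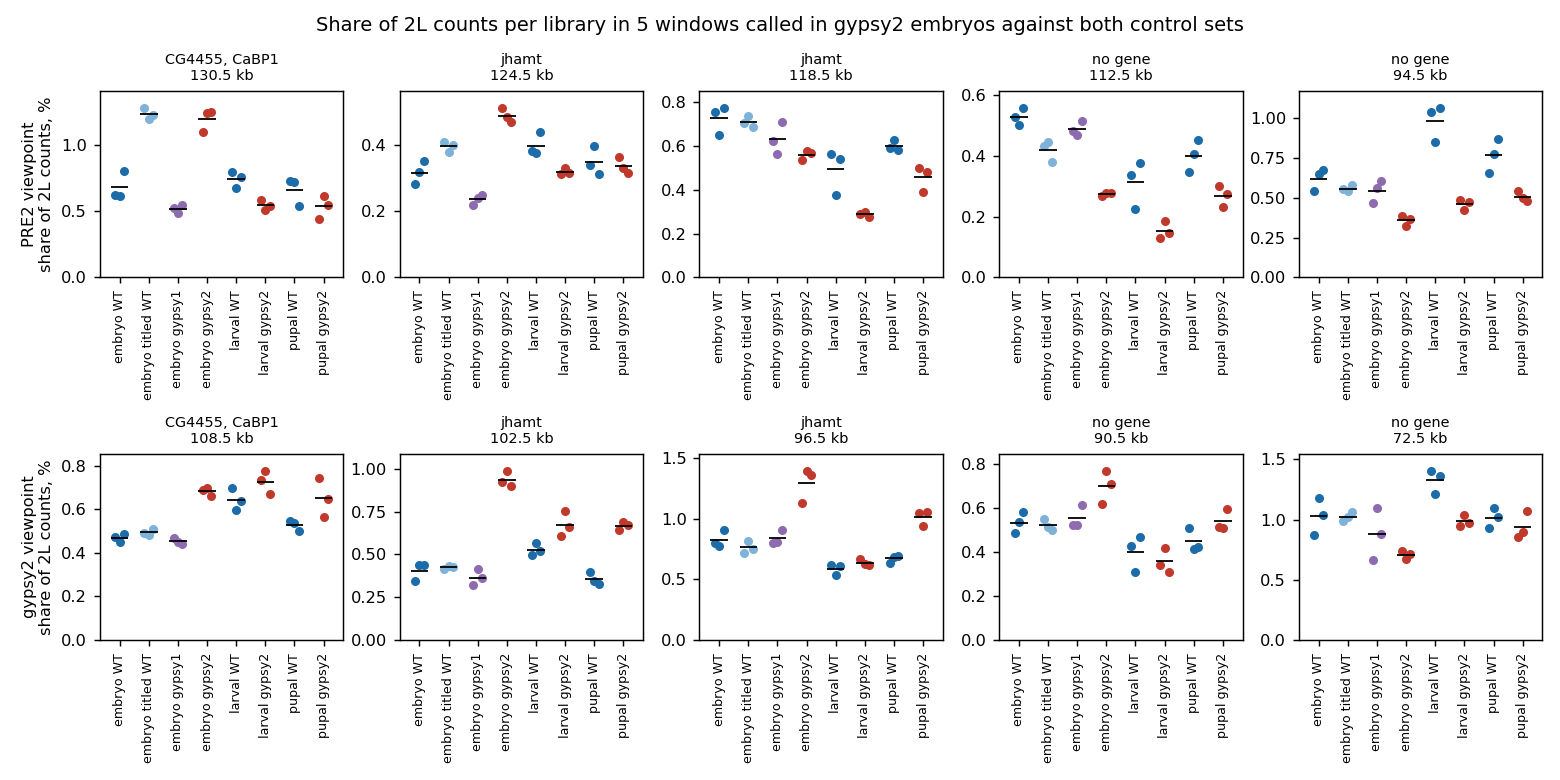
Share of 2L counts (%) per library (points; line, mean of 3) in 5 windows of the nearest block that passed the test in gypsy2 embryos against both control sets from at least 1 viewpoint, from PRE2 (top row) and the gypsy2 viewpoint (bottom row), with genes and distance from the viewpoint bin above each panel. From the gypsy2 viewpoint the gypsy2 embryo libraries at the window upstream of jhamt lie at 0.901 to 0.99%, above all other embryo libraries.

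On either side of jhamt the changes were smaller. The CaBP1 window, 16354001 to 16360000, rose from 0.472, 0.448 and 0.487% in WT and 0.489, 0.481 and 0.512% in titled WT to 0.689, 0.696 and 0.659% in gypsy2 embryos (0.54 ± 0.09, adjusted p = 0.00192, and 0.46 ± 0.07, adjusted p = 0.000333), and both calls held without any 1 library. The gene-free window 16372001 to 16378000, which fell from PRE2, rose by 0.39 ± 0.11 (adjusted p = 0.0415) and 0.43 ± 0.08 (adjusted p = 0.00288) from the gypsy2 viewpoint. The first was lost without gypsy2 replicate 5 (0.175) or 6 (0.0992) or WT replicate 1 (0.185) or 2 (0.124), and the second without gypsy2 replicate 5 (0.0594). Nearest to dac, 16390001 to 16396000 fell from this viewpoint too, from 0.874, 1.18 and 1.04% in WT and 0.986, 1.03 and 1.06% in titled WT to 0.741, 0.673 and 0.713% (-0.54 ± 0.10, adjusted p = 0.00424, and -0.53 ± 0.06, adjusted p = 1.17e-05). Both calls held without any 1 library. No other window of the flank passed the test as lower in gypsy2 embryos from both viewpoints and against both control sets.

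In all, 9 of 68 windows rose and 4 fell in gypsy2 embryos against WT from the gypsy2 viewpoint, where 4.52% of all windows of 2L and 23.8% of those within 500 kb passed; the fit within 500 kb gave 14 and 10. Against titled WT 7 rose and 2 fell (2.69 and 17.7%), or 8 and 5 by DESeq2 and 9 and 6 in the fit within 500 kb. Against both, 6 rose and 1 fell. Besides the 4 windows from CaBP1 to the jhamt downstream side, the 6 included 16330001 to 16336000 at CG31817, at 0.56 ± 0.12 (adjusted p = 0.00858) and 0.41 ± 0.09 (adjusted p = 0.013), and 16150001 to 16156000 in the repeat-rich stretch, at 0.81 ± 0.22 (adjusted p = 0.0483) and 1.54 ± 0.28 (adjusted p = 0.00206). The first was lost without WT replicate 1 (0.061) and, against titled WT, without gypsy2 replicate 5 (0.0574) or titled WT replicate 5 (0.0878) or 6 (0.0776). The second, at shares of 0.0328, 0.0271 and 0.0338% in gypsy2 and 0.0149, 0.0218 and 0.0168% in WT, was lost against WT without gypsy2 replicate 4 (0.0867) or 6 (0.0899) or WT replicate 1 (0.262), 2 (0.0721) or 3 (0.162), and kept against titled WT without any 1 library. Against titled WT alone the window 16252001 to 16258000, with PRL-1 and the start of EndoGI, an inhibitor of an endonuclease, rose from 0.0671, 0.0618 and 0.0638% to 0.128, 0.113 and 0.1% (0.82 ± 0.16, adjusted p = 0.00245), and WT embryos held 0.101, 0.121 and 0.0835%. Against WT alone 16060001 to 16066000 in beat-Ia fell by -0.69 ± 0.19 (adjusted p = 0.0418) and the gene-free 16138001 to 16144000 rose by 0.998 ± 0.262 (adjusted p = 0.0388), each kept in 1 of 6 fits without a library, where adjusted p reached 0.182 without WT replicate 1 and 0.227 without WT replicate 1. In larval discs 0 of 67 windows passed (0.0266% of all windows, 0.613% within 500 kb) and 7 had an unadjusted p under 0.05, while DESeq2 called 1. In pupal discs the 2 jhamt windows rose and 0 fell (0.159 and 3.66%), with 3 and 2 by DESeq2 and in the fit within 500 kb.

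In blocks from the gypsy2 viewpoint, 1 rose and 0 fell in gypsy2 embryos against WT (25.1% of all blocks) and 4 rose and 0 fell against titled WT (25.6%). The nearest block held 7.35, 7.96 and 7.7% in gypsy2 embryos against 6.95, 7.19 and 7.94% in WT and 6.53, 6.68 and 6.72% in titled WT, and it was called against titled WT alone (0.21 ± 0.04, adjusted p = 0.000387; 0.06 ± 0.07, adjusted p = 0.583, against WT). The block in both counts was the repeat-rich 16105001 to 16164000, at 0.39, 0.364 and 0.392% in gypsy2 embryos and 0.303, 0.344 and 0.278% in WT (0.31 ± 0.10, adjusted p = 0.0164, lost without gypsy2 replicate 6, 0.0563, or WT replicate 1, 0.0831, or 3, 0.0636). Against titled WT it was at 0.27 ± 0.09 (adjusted p = 0.0208), lost without gypsy2 replicate 6 (0.0576) or titled WT replicate 4 (0.201). In larval discs 0 of 7 blocks passed (0.254% of all blocks), 1 had an unadjusted p under 0.05 and DESeq2 called 0. In pupal discs 1 rose and 3 fell (5.08%). The nearest rose from 6.42, 6.6 and 6.07% to 7.24, 7.25 and 8.02% (0.24 ± 0.05, adjusted p = 0.00193; 0.0562 without WT replicate 1). The 3 that fell were the farthest ones, with beat-Ic, BicC and beat-Ia and the repeat-rich stretch, at -0.51 ± 0.12 (adjusted p = 0.00626), -0.46 ± 0.13 (adjusted p = 0.0279) and -0.52 ± 0.13 (adjusted p = 0.014). The first of these was lost without WT replicate 1 (0.126), the BicC and beat-Ia block without gypsy2 replicate 2 (0.0943) or 3 (0.112) or WT replicate 1 (0.167), 2 (0.0757) or 3 (0.0639) and with TMM (0.108), and the repeat-rich block without gypsy2 replicate 3 (0.0834) or WT replicate 1 (0.0839), 2 (0.0757) or 3 (0.0501).

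The 2 embryo control sets differed within the flank, and of the 4 windows that rose from PRE2 the one at CaBP1 rose most. It held 0.626, 0.619 and 0.804% in WT, 0.528, 0.484 and 0.546% in gypsy1, 1.28, 1.2 and 1.23% in titled WT and 1.1, 1.24 and 1.25% in gypsy2 embryos. The 2 sets of shallow libraries were thus low and the 2 sets of deep libraries high. The log2 fold change was 0.81 ± 0.09 (edgeR, adjusted p = 9.46e-06) for gypsy2 against WT, 0.86 ± 0.08 (adjusted p = 2.98e-07) for titled WT against WT and -0.05 ± 0.06 (adjusted p = 0.935) for gypsy2 against titled WT. The window upstream of jhamt held 0.281, 0.318 and 0.35% in WT, 0.409, 0.377 and 0.4% in titled WT and 0.511, 0.483 and 0.47% in gypsy2 embryos, which was higher than WT (adjusted p = 0.000594) and not called against titled WT (0.30 ± 0.08, adjusted p = 0.111). The window from 16330001 with CG4440 and CG31817 was, from PRE2, at 0.70 ± 0.09 (adjusted p = 0.000115), 0.55 ± 0.09 (adjusted p = 0.000726) and 0.15 ± 0.08 (adjusted p = 0.726) in the same order of comparisons as CaBP1. Seen from the gypsy2 viewpoint, the BicC window, 16042001 to 16048000, was at 0.88 ± 0.19 (adjusted p = 0.00902), 0.85 ± 0.17 (adjusted p = 0.0267) and 0.04 ± 0.16 (adjusted p = 0.958), and the first was lost without gypsy2 replicate 5 (0.054) or WT replicate 1 (0.0815) or 3 (0.0531). Depth, the second control set and whatever else set these libraries apart cannot be told apart here, and these comparisons share libraries.

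In titled WT against WT, 4 windows rose and 4 fell from PRE2 (1.62% of all windows, 15.3% within 500 kb; 9 and 11 by DESeq2, 15 and 13 in the fit within 500 kb), and 1 rose and 3 fell from the gypsy2 viewpoint (0.85 and 7.93%; 3 and 7 by DESeq2, 5 and 9 in the fit within 500 kb). With TMM the latter split was 1 and 2. From PRE2 the low crp window 16276001 to 16282000 fell from the WT values given above to 0.0249, 0.0229 and 0.0229% (-1.06 ± 0.21, adjusted p = 0.00876, lost without titled WT replicate 6, 0.0731, or WT replicate 1, 0.209), while gypsy1 and gypsy2 embryos held 0.0376 to 0.0608%. The 3 that fell from the gypsy2 viewpoint were neighbours in the dense row of genes, 16294001 to 16312000, from Cyp303a1 and heix through c(2)M, a protein of the synaptonemal complex, to Syx5, cni and fzy, at -0.76 to -0.96. All 3 were lost without titled WT replicate 5 or 6 or WT replicate 1 or 2 (adjusted p of 0.0666 to 0.299), and the first also with TMM. In blocks 1 rose and 2 fell from PRE2 (15.5%), and 0 rose and 1 fell from the gypsy2 viewpoint (23.1%; 1 and 1 with TMM and by DESeq2).

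In gypsy1 embryos from PRE2 the nearest block also fell, to 5.03, 4.81 and 5.53%, by -0.22 ± 0.05 (edgeR, adjusted p = 0.00587); the call was lost without the gypsy1 library of column 3 (adjusted p = 0.151). This comparison and that of gypsy2 embryos share the WT libraries. It was the only block of 7 called from PRE2 (4.83% of all blocks). 2 of 67 windows fell and 0 rose (1.19% of all windows, 11% within 500 kb), CaBP1 at -0.40 ± 0.09 (adjusted p = 0.0149) and the window upstream of jhamt, with 0.218, 0.24 and 0.248% against 0.281, 0.318 and 0.35% in WT, at -0.43 ± 0.11 (adjusted p = 0.0306). The first was lost without gypsy1 column 3 (0.0964) or WT replicate 3 (0.304), and the second without gypsy1 column 1 (0.117) or 3 (0.0715) or WT replicate 2 (0.134) or 3 (0.228). The gypsy1 values given are from the fit without a replicate block. With the shared column number as a replicate block, 6 of 67 windows fell and 0 rose from PRE2. Of the 7 blocks of 59 kb, 1 fell and 0 rose in that fit. From the gypsy2 viewpoint 0 of 67 windows passed (0.353% of all windows, 0.613% within 500 kb), 2 had an unadjusted p under 0.05 and DESeq2 called 0, and 0 of 7 blocks passed (0.761% of all blocks), with 0 at an unadjusted p under 0.05 and 0 by DESeq2. The window upstream of jhamt, which rose in gypsy2 embryos from that viewpoint, was at -0.15 ± 0.14 (adjusted p = 0.834) in gypsy1.

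Between WT stages few windows passed. The stages also differ in depth and in the table that holds them, and these cannot be told apart from stage here. From PRE2, 1 of 67 rose in larval discs against embryos (0.245% of all windows, 5.52% within 500 kb; 10 rose and 4 fell in the fit within 500 kb), 16390001 to 16396000 at 0.66 ± 0.12 (edgeR, adjusted p = 0.0372), a call lost without larval replicate 1 (0.0949) or 3 (0.0717) or embryo replicate 1 (0.459), 2 (0.179) or 3 (0.186). With the gypsy2 viewpoint 1 rose (0.16 and 3.07%; 15 and 7 in the fit within 500 kb, 1 rose and 1 fell with the shared number as a replicate block), in crp at 16270001 to 16276000, from 0.0867, 0.105 and 0.0665% in embryos to 0.197, 0.204 and 0.18% in larval discs (1.17 ± 0.18, adjusted p = 0.0289). That call was lost without any 1 of the 6 libraries (adjusted p of 0.0553 to 0.291), and larval gypsy2 libraries held 0.198, 0.197 and 0.19%. For pupal against larval WT discs 0 of 67 windows passed from PRE2 (0.0532 and 1.23%), with 12 at an unadjusted p under 0.05 and 10 by DESeq2, and 0 of 67 from the gypsy2 viewpoint (0 and 0%), with 20 at an unadjusted p under 0.05 and 14 by DESeq2. The typical SE of a log2 fold change in the flank was 0.166 to 0.204 in the embryo comparisons and 0.226 and 0.2 in larval against embryo WT, as medians over windows. It was higher in the disc comparisons, at 0.306 and 0.244 from PRE2 and the gypsy2 viewpoint in pupal against larval WT. For gypsy2 discs it was 0.295 and 0.266 in larval and 0.298 and 0.269 in pupal discs.

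As blocks, the dense row of genes and the block with beat-Ia and BicC differed between WT embryos and larval discs. From the gypsy2 viewpoint, 16282001 to 16341000 held 1.67, 1.71 and 1.42% in WT embryos, 2.26, 2.29 and 2.09% in larval and 1.93, 1.92 and 1.92% in pupal discs. Larval and pupal libraries lay above all WT embryo libraries, and the larval rise was 0.47 ± 0.09 (edgeR, adjusted p = 0.00468), kept without any 1 library. Larval gypsy2 libraries held 2.57, 2.77 and 2.51%, and no embryo library held more than 1.83%. From PRE2 the same block was at 0.23 ± 0.08 (adjusted p = 0.0747). There the deep titled WT embryo libraries held 3.23 to 3.4%, and larval WT libraries 3.14 to 3.35%. The neighbouring block from 16223001 rose from the gypsy2 viewpoint by 0.45 ± 0.11 (edgeR, adjusted p = 0.0199). That call was lost without larval replicate 1 (0.0832) or 2 (0.101) or embryo replicate 2 (0.0958) or 3 (0.093). The beat-Ia and BicC block held 0.315, 0.341 and 0.273% from PRE2 in embryos, 0.239, 0.244 and 0.206% in larval and 0.362, 0.321 and 0.329% in pupal discs. Its larval libraries lay below these WT embryo and pupal libraries, but titled WT embryos held 0.214 to 0.227%, within the larval range. From the gypsy2 viewpoint titled WT embryos held 0.411 to 0.453% and larval WT 0.312 to 0.35%, without overlap. The larval change was -0.43 ± 0.12 against embryos (edgeR, adjusted p = 0.0434), and -0.40 ± 0.11 from the gypsy2 viewpoint (edgeR, adjusted p = 0.0332). Neither was called with TMM (0.144 and 0.129). The first was also lost by DESeq2 (0.159) and without larval replicate 1 (0.0984) or 3 (0.0754) or embryo replicate 1 (0.171) or 2 (0.181). The second was lost without larval replicate 2 (0.1) or 3 (0.0512) or embryo replicate 1 (0.157), 2 (0.134) or 3 (0.0732). In all, 2 blocks rose and 1 fell from the gypsy2 viewpoint in larval discs against embryos (4.57% of all blocks; 2 and 0 with TMM), and 0 rose and 1 fell from PRE2 (7.36%; 2 and 0 with TMM and by DESeq2). In pupal against larval discs 2 rose and 0 fell from PRE2 (3.81%; 0 and 1 with TMM) and 2 rose and 1 fell from the gypsy2 viewpoint (5.33%; 0 and 3 with TMM and by DESeq2). The median change over all windows of 2L was itself -0.18 and -0.11 in larval against embryo WT from PRE2 and the gypsy2 viewpoint, and 0.21 from both in pupal against larval. Relative to it the pupal rises of the far blocks, 0.48 and 0.55 from PRE2, with 0.53 and 0.47 from the second viewpoint, are smaller, and with TMM scaling none of them passed.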

How the data were processed

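The tables analysed hold raw read counts per 1-kb bin of dm6, which the authors deposited for each viewpoint and stage; the submitters' processing notes name Bowtie and dm6, and whether PCR copies were removed is not stated. The 6 tables hold 48 columns, 2 viewpoints for each of 24 libraries, and 0 columns were left unused. The paper supplied with the series describes no 4C-seq, so nothing on these libraries was taken from it. Hi-C and CUT&RUN samples were not analysed here.

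Counts over 5 kb from the viewpoint bin were summed on 2L into 6-kb windows, tiled from PRE1, and into 59-kb blocks. edgeR 4.0.16 (R 4.3.3) fitted each comparison by its quasi-likelihood test on the 2 groups compared, with the 2L count outside 5 kb as library size and a mean count of at least 10. p-values were adjusted by Benjamini-Hochberg over all windows or all blocks of 2L, and 0.05 was the threshold. SEs are on the log2 scale. Alternatives were TMM factors, DESeq2 1.42.0, no filter on low counts, windows within 500 kb with TMM, windows shifted by 3 kb, bins capped at the 99th percentile, a replicate block and leaving out each library. The window fits were tested on simulated counts, with 60 windows within 500 kb of the viewpoint changed 2-fold. They recovered 39 to 59 in the embryo comparisons, and 40 and 39 in larval against embryo WT from PRE2 and the gypsy2 viewpoint. In the same order they recovered 9 and 5 in larval gypsy2, 3 and 0 in pupal gypsy2, and 5 and 0 in pupal against larval WT. Few or 0 calls in those disc comparisons therefore do not show that changes of that size were absent. Decay lines, peaks, steps and viewpoint ratios are descriptions made in Python 3.11.15 (pandas 2.3.3, numpy 2.4.6).

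Windows named are the peaks, up to 5 called windows of highest absolute log2 fold change per comparison and viewpoint, and those called in the same direction against both embryo control sets or in gypsy2 in at least 2 stages, and genes named overlap them or lie at the 4 steps of highest mean; other genes give the content of a block, and a clause of the rule on GAGA factor peaks was not used. Sequences were chosen after their windows' values were seen. Members, lists and rules were chosen with earlier results of these data known. Same-numbered columns of gypsy1 and WT embryos (1, 3 and 4) deviated together, with correlations over windows of 0.355, 0.419 and 0.274 with the PRE2 viewpoint, and with that of gypsy2 they were 0.544, 0.575 and 0.151, so those numbers were taken to pair the libraries. Larval and embryo WT share numbers in their titles alone, and their column numbers differ. Their correlations were 0.128, 0.2 and 0.315 with the gypsy2 viewpoint but -0.0711, 0.276 and 0.249 with PRE2. Their blocked count is given for the former, and whether these numbers pair the libraries is not known. The other comparisons share only a number or none.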

Additional observations from a re-analysis of the deposited data

Results flagged for a closer look

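Only the named windows, chosen mostly for being called, and the 7 blocks were searched here. In 5 places every gypsy2 library moved one way against WT in embryos and the opposite way in a later stage. The groups did not overlap in either stage, and the difference between the stages was not tested. Over all windows of 2L from PRE2, gypsy2 lay above WT without overlap in 11.8% in embryos and below it in 5.27% in larval discs. From the gypsy2 viewpoint these shares were 11.4% in embryos and 8.17% in pupal discs. The share that was opposite in 2 stages was not counted over 2L. From PRE2, the CaBP1 window 16354001 to 16360000 had a log2 ratio of mean shares of 0.81 in embryos and -0.44 in larval discs, and the window upstream of jhamt, 16360001 to 16366000, 0.626 and -0.319. Both embryo values are against the shallow WT libraries, and the fitted log2 fold changes against titled WT were -0.05 and 0.30. From the gypsy2 viewpoint, the BicC window 16042001 to 16048000 was at 0.884 in embryos and -0.543 in pupal discs, while the fit against titled WT gave 0.04 (edgeR, adjusted p = 0.958) in embryos. The block with cact and fzy, 16282001 to 16341000, was at 0.216 in embryos and -0.162 in pupal discs from PRE2, with a fitted -0.05 (adjusted p = 0.616) against titled WT in embryos, and the repeat-rich block 16105001 to 16164000 at 0.31 and -0.518 from the gypsy2 viewpoint, with a fitted 0.27 (adjusted p = 0.0208) against titled WT.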

How the results depend on the processing

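No call at a named window and no block call changed direction in the settings compared, which for these calls did not include windows shifted by 3 kb. For the 50 calls at named windows, fits without 1 library kept 199 of 300, and other settings kept 261 of 272. For the 29 block calls these were 112 of 174 and 91 of 109. The order below is gypsy2 embryos against WT, against titled WT, gypsy1 against WT, titled WT against WT, larval gypsy2, pupal gypsy2, larval against embryo WT and pupal against larval WT. With DESeq2, called windows from PRE2 were 14, 10, 20 (titled WT), 6, 6, 13 and 10, and from the gypsy2 viewpoint 20, 10 (titled WT), 1, 5, 18 and 14. DESeq2 called 5 blocks for pupal gypsy2 and 2 for larval against embryo WT from PRE2, and 2 for titled WT from the gypsy2 viewpoint. Within 500 kb and with TMM, windows were 17, 11, 1, 28, 7, 9, 14 and 6 from PRE2, and 24, 15, 14 (titled WT), 1, 5, 22 and 14 from the gypsy2 viewpoint. With TMM over 2L, larval gypsy2 had 0 windows from PRE2, and blocks were 1 for gypsy2 embryos against titled WT, 2 for larval against embryo WT and 1 for pupal against larval WT from PRE2, and 2 for titled WT from the gypsy2 viewpoint, as with capped bins (2), though no bin of the flank was capped. Windows shifted by 3 kb gave 1 for pupal gypsy2 and 3 for larval against embryo WT from PRE2, and 0 for pupal gypsy2 from the gypsy2 viewpoint. With a replicate block, windows from PRE2 were 6 for gypsy1, 1 for larval gypsy2, 1 for pupal gypsy2 and 3 for larval against embryo WT, windows from the gypsy2 viewpoint 0 for pupal gypsy2 (jhamt windows, adjusted p of 0.18 and 0.281) and 2 for larval against embryo WT, and blocks 2 for larval against embryo WT and 1 for pupal against larval WT from PRE2 and 1 for the latter from the gypsy2 viewpoint. The block could not be run for gypsy2 embryos and titled WT against WT, which share no numbers. Without 1 library, windows from PRE2 ranged over 7 to 9, 3 to 5, 0 to 3, 4 to 7, 0 to 5, 0 to 2, 0 to 1 and 0 to 0, and from the gypsy2 viewpoint over 5 to 12, 6 to 11, 0 to 1, 0 to 6, 0 to 0, 0 to 2, 0 to 0 and 0 to 0. Blocks ranged over 1 to 3, 1 to 2, 0 to 1, 2 to 4, 1 to 1, 1 to 2, 0 to 2 and 0 to 2 from PRE2, and 0 to 1, 2 to 3, 0 to 0, 0 to 2, 0 to 0, 0 to 4, 1 to 2 and 0 to 4 from the gypsy2 viewpoint. The cause of these changes was not tested. Leaving out 20 kb instead of 5 kb around the viewpoint raised the flank's share in WT embryos to 12.7% from PRE2 and 14.7% from the gypsy2 viewpoint. Counting error of the flank total was at most 0.486%, in a shallow embryo library.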
